A study of Homo sapiens with 6 samples.

Results

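The genes described here are those whose H3K4me3 count was at least 2-fold higher after the PRC2 inhibitor MAK683 in G401 cells. They were chosen from the raw H3K4me3 counts themselves, as genes with a mean of at least 50 reads over the DMSO and MAK683 libraries and a log2 ratio of at least 1 with a pseudocount of 1. Of 56638 genes in the table, 22042 reached the mean of 50 reads, and 110 of these (0.499%) met the ratio, while 34 (0.154%) met the same ratio in the opposite direction. G401 is a malignant rhabdoid tumor line that lacks SMARCB1, and SMARCB1 had 0 reads in both inputs. The cultures received either DMSO or MAK683 at 3 µM, a compound that binds the EED subunit of PRC2, and were collected after 3 days, with 1 library per treatment of H3K4me3, of H3K27me3 and of input, the last being chromatin sequenced without an antibody. With 1 library per group there was no replicate check, so no p-value was computed, and the H3K4me3 values of the chosen genes are a description of the choice.

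The 6 libraries held between 13308099 and 21281877 reads assigned to genes. H3K27me3 had 19162778 reads in DMSO and 13308099 in MAK683, so a gene whose reads followed the library had 41.0% of its H3K27me3 counts in MAK683, and a lower H3K27me3 count does not by itself mean a smaller part of the library. For H3K4me3, with 21281877 and 19626192 reads, that share was 48.0%. The counts were not scaled to the Drosophila spike-in of the study, so they give the distribution of each library's reads among genes, and the total amount of a mark per cell is not known from them. Each value averages over all cells of a culture, so more mark per cell and more cells with the mark cannot be told apart. Whether exons or whole genes were counted is not given in the sources used here. When genes with input reads and at least 50% unshared span were split by length, the upper 3 of 4 groups (median lengths 7.63, 31.4 and 122.2 kb) held 26.6, 26.4 and 25.4 input reads per kb in the median, so outside the shortest genes the counts scaled with the whole span, and a narrow promoter signal is then diluted in a long gene.

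Polycomb repressive complex 2 methylates histone H3 at lysine 27, and H3K27me3 covers the promoters and bodies of genes held silent, among them many regulators of embryonic patterning. EED binds H3K27me3 and is needed for the activity of EZH2, the catalytic subunit. H3K4me3 is placed by the COMPASS family of methyltransferases at the starts of active or poised genes, mostly at CpG-rich promoters. Promoters that hold both marks are known as bivalent.

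The promoters of the 4 chosen genes with the largest H3K4me3 ratio are shown because they differ widely in CpG content. Each line gives the 250 bases before the start of the canonical transcript in GRCh37, 5′ to 3′ on the gene's strand, with every CpG in capitals. The windows are chr9:92219677-92219926 on the plus strand for GADD45G, chr10:92680845-92681094 on the minus strand for ANKRD1, chr11:117747374-117747623 on the minus strand for FXYD6 and chrX:72434688-72434937 on the minus strand for NAP1L2. They hold 20, 4, 23 and 4 CpG, respectively.
GADD45G: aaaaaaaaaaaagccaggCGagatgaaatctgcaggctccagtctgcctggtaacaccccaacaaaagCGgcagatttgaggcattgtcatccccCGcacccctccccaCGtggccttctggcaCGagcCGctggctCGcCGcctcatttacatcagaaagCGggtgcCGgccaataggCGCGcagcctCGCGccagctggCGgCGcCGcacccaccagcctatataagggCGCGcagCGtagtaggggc
ANKRD1: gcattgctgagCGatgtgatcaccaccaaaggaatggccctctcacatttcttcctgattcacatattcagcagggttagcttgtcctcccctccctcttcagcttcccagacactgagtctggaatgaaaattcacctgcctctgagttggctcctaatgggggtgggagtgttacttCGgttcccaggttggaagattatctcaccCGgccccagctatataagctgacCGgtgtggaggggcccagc
FXYD6: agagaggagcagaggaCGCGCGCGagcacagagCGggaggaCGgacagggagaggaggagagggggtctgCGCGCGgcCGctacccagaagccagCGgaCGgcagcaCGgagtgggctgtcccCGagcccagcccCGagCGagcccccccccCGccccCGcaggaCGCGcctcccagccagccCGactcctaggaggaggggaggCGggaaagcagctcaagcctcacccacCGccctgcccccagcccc
NAP1L2: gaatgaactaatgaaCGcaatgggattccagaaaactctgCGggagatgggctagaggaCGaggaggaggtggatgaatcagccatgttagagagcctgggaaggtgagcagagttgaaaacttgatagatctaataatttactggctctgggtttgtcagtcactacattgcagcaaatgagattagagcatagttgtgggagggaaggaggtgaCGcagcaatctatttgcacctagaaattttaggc
GADD45G and FXYD6 thus start in CpG-dense sequence, and ANKRD1 and NAP1L2 in sequence with few CpG.

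The 110 genes together held 11949 H3K4me3 reads in DMSO, 0.0562% of the library, and 30614 in MAK683, 0.156% of the library. Over the same genes the input held 8268 reads in DMSO and 10566 in MAK683. The median gene had 75.5 H3K4me3 reads in DMSO and 209.5 in MAK683, against medians of 660 and 588 over all 22042 genes. The log2 ratio of H3K4me3 ranged from 1 to 2.77 with a median of 1.25, where the median of all 22042 genes was -0.13. The 95% exact Clopper-Pearson interval of the MAK683 share covers counting error only. It lay above the library's 48.0% for each of the 110 genes. The choice by a 2-fold ratio and a mean of at least 50 reads made this certain, so it is no support for the higher counts. For 43 of them the interval also lay above the share that a 2-fold ratio gives, so for the other 67 the counting error reached below the threshold.

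**Figure D1:**
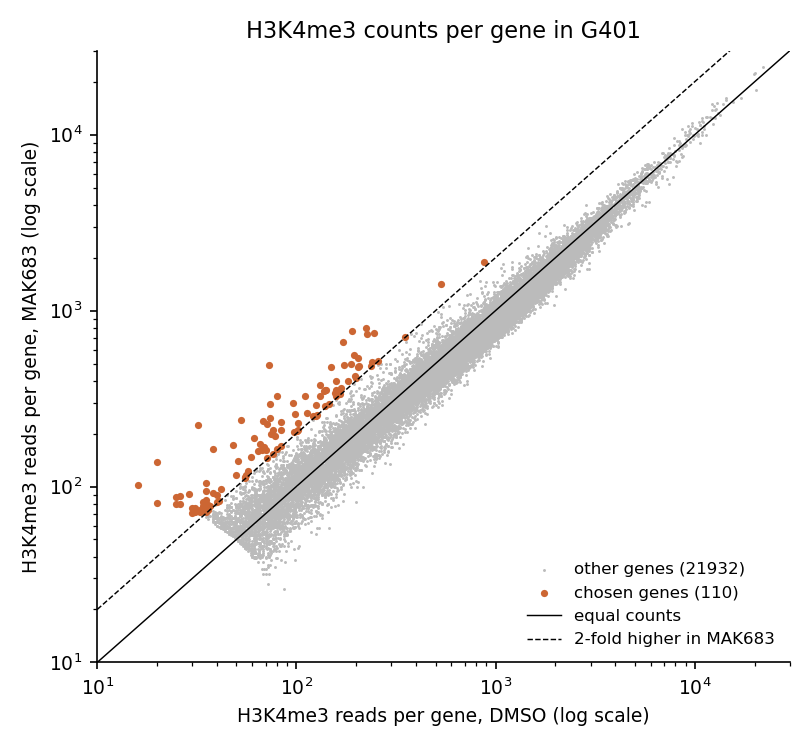
H3K4me3 reads per gene in DMSO (x axis) and MAK683 (y axis), 1 library each, both on log scales, for the 22042 genes that averaged at least 50 reads. The 110 chosen genes lie on or above the dashed line of a 2-fold higher count, most of them at low counts in DMSO, with a median of 75.5 reads.

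GADD45G, a stress-inducible regulator of growth arrest that lies at chr9:92219927-92221470, had the largest ratio. It had 32 H3K4me3 reads in DMSO and 224 in MAK683, a log2 ratio of 2.77, while its input held 30 and 27 reads. Its H3K27me3 count was 234 in DMSO and 142 in MAK683. The gene thus carried many H3K27me3 reads per input read in both treatments, and its H3K4me3 reads exceeded its H3K27me3 reads only after MAK683. Scaled to the library totals, the log2 levels over input in MAK683 were close, 3.00 for H3K4me3 and 2.90 for H3K27me3. The H3K27me3 level in DMSO was 2.74, so on this scale it was not lower in MAK683. ANKRD1, an ankyrin repeat protein of heart muscle and a known target of YAP and TEAD, lies at chr10:92671853-92680844. Its H3K4me3 count was 73 in DMSO and 491 in MAK683, its H3K27me3 count 268 and 124, and its input 93 and 132. Here H3K27me3 had the larger count in DMSO and H3K4me3 in MAK683.

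FXYD6, a regulator of the sodium pump, had 20 H3K4me3 reads in DMSO and 137 in MAK683. Its H3K27me3 count was 91 and 71 and its input 10 and 13, and 2.02% of its span is not shared with other annotated genes. NAP1L2, an X-linked nucleosome assembly protein of neurons at chrX:72432135-72434687, had 16 H3K4me3 reads in DMSO and 102 in MAK683. Its H3K27me3 count was 72 and 32, and its input 14 and 10. In both genes the input held few reads, too few to show that it was equal in the 2 treatments. The DMSO H3K4me3 count of both was among the lowest of all the chosen genes.

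The remaining genes among the 12 with the largest ratio were GPR12, NOV, ALPPL2, MAF, SNAI2, a clone-named gene RP11-64B16.3, TBX3 and EN2. GPR12, an orphan G protein-coupled receptor, had 53 H3K4me3 reads in DMSO and 239 in MAK683, with 356 and 250 H3K27me3 reads and 68 and 97 input reads. NOV, a secreted matricellular protein also known as CCN3, had 38 and 163 H3K4me3 reads, with 191 and 128 H3K27me3 reads and 26 and 51 input reads. RP11-64B16.3 had 20 and 81 H3K4me3 reads, with 157 and 99 H3K27me3 reads and 40 and 36 input reads. For these 3 genes the H3K27me3 count was lower in MAK683, but scaled to the library totals (CPM) the log2 ratios of GPR12, NOV and RP11-64B16.3 were only 0.016, -0.051 and -0.14. ALPPL2, an alkaline phosphatase of germ and placental cells anchored at the cell surface, was the only one of the 12 with H3K27me3 below input. It had 80 and 327 H3K4me3 reads but 36 and 24 H3K27me3 reads, fewer than its 47 and 49 input reads.

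**Figure D2:**
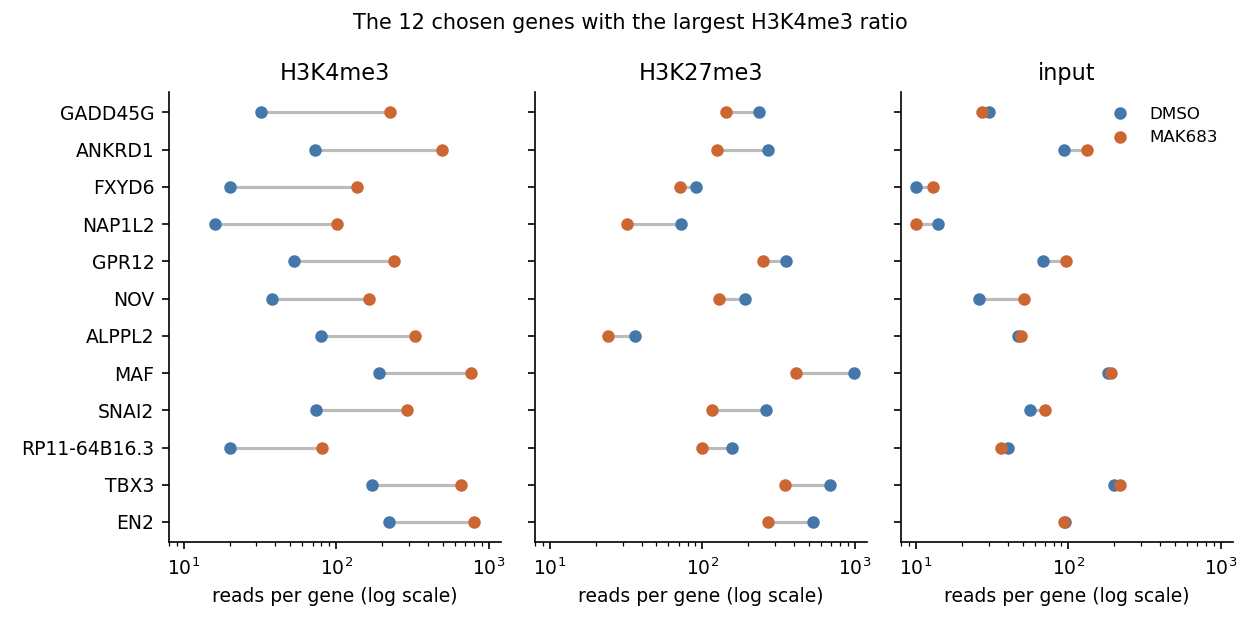
Reads per gene on a log scale in DMSO (blue) and MAK683 (orange) for the 12 genes with the largest H3K4me3 ratio, in the H3K4me3, H3K27me3 and input libraries, 1 library per point. In raw counts H3K4me3 is higher and H3K27me3 lower in MAK683 in all 12, but the MAK683 H3K27me3 library was smaller, and scaled to the library totals H3K27me3 was not lower in FXYD6 and GPR12 (log2 ratios of 0.17 and 0.016).

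By function, 28 of the 110 genes encode regulators of transcription, 13 secreted factors, 17 proteins of the cell surface and 16 other proteins, and 36 are noncoding RNAs, pseudogenes or genes with clone names. These roles were given to the chosen genes only, so no share over all genes stands beside the counts. Whether a role was more frequent than among other genes is not known from them. Of the genes in 10 families of transcription factors, 17 of 777 (2.19%) were chosen, against 0.499% of all genes. Most of these 17 were on the list of homeobox genes outside the HOX clusters, with 13 of 137 (9.49%). The list was made from name patterns and does not hold every homeobox gene. They were EN2, EMX2, DLX5, HMX1, NKX6-1, GSC, NKX2-8, POU3F2, EVX2, ISL1, BARHL2, POU4F2 and SHOX. From the HOX clusters came 1 of 18 genes, HOXD13, from the forkhead family 2 of 35, FOXF1 and FOXQ1, and from the T-box family 1 of 16, TBX3. The exact intervals of the HOX share (0.141% to 27.3%) and the T-box share (0.158% to 30.2%) held the 0.499% of all genes. None was found among 10 SOX, 5 GATA, 44 lineage bHLH, 28 KLF, SP and EGR, 46 nuclear receptor and 438 numbered zinc finger genes, but the exact interval of each of these shares reached above the background of 0.499%, so the absence cannot be told from it.

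EN2, the engrailed homeobox gene that patterns the midbrain and hindbrain, had 223 H3K4me3 reads in DMSO and 797 in MAK683, with 532 and 270 H3K27me3 reads and 95 and 93 input reads. EMX2, which patterns the forebrain and the urogenital system, had 61 and 189 H3K4me3 reads, 473 and 222 of H3K27me3 and 55 and 56 of input. DLX5, a gene of craniofacial and limb development, had 76 and 209 H3K4me3 reads, 487 and 237 of H3K27me3 and 49 and 68 of input. All 3 had fewer H3K4me3 than H3K27me3 reads in DMSO, and only EN2 had more in MAK683. HMX1, a gene of eye and ear development, had far higher counts, with 531 and 1410 H3K4me3 reads beside 1742 and 967 H3K27me3 reads and 273 and 411 input reads.

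Homeobox genes known from neurons were also among the 13. NKX6-1, which acts in motor neurons and in beta cells, had 137 reads in DMSO and 348 in MAK683. ISL1, a LIM homeobox gene of motor neurons and heart progenitors, had 139 and 287. POU3F2, a neuronal POU factor, had 168 and 362, and POU4F2, the POU factor of retinal ganglion cells, had 55 and 112. POU4F2 and BARHL2, with 71 and 146 reads, were near the lower limit of the ratio, with log2 values of 1.01 and 1.03. GSC, the homeobox gene of the gastrula organizer, had 125 and 291 reads, and NKX2-8 had 158 and 356. SHOX, a regulator of long bone growth with 352 and 707 H3K4me3 reads, lies in the pseudoautosomal region, so the assignment of its reads is uncertain.

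HOXD13, which shapes the digits, and EVX2 lie 8.76 kb apart on chromosome 2, at chr2:176957449-176960672 and chr2:176942200-176948690. HOXD13 had 149 H3K4me3 reads in DMSO and 477 in MAK683, with 332 and 190 H3K27me3 reads and 48 and 56 input reads. EVX2 had 239 and 511 H3K4me3 reads, with 735 and 365 H3K27me3 reads. Both neighbors thus had more H3K4me3 and fewer H3K27me3 reads in MAK683, with EVX2 at the smaller H3K4me3 log2 ratio, 1.09 against 1.67. TBX3, a T-box repressor of limb and mammary development, had 172 and 660 H3K4me3 reads, with 690 and 349 H3K27me3 reads and 200 and 218 input reads. FOXF1, a forkhead factor of lung and gut mesenchyme, had 102 and 210 H3K4me3 reads, with 374 and 156 of H3K27me3 and 39 and 61 of input. FOXQ1 had 36 and 74, with 260 and 121 of H3K27me3 and 26 and 27 of input.

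A further 11 regulators of transcription were outside these 10 families and were grouped by their known function after the chosen genes had been seen. MAF, a basic leucine zipper factor and the 1 chosen of 41 AP-1 and early response genes, had 190 and 768 H3K4me3 reads, with 986 and 414 H3K27me3 reads and 181 and 190 input reads. SNAI2, a repressor that acts in the neural crest and in epithelial-mesenchymal transition, had 74 and 293 H3K4me3 reads, with 262 and 116 of H3K27me3 and 56 and 70 of input. LMO4, a LIM-only cofactor, had the highest H3K4me3 counts of the 110 genes in both treatments, 871 and 1896, with 1238 and 493 of H3K27me3 and 215 and 278 of input. In MAF, SNAI2 and LMO4 the H3K27me3 count was more than 2-fold lower in MAK683, with log2 ratios of -1.25, -1.17 and -1.33. TFAP2C, an AP-2 factor of trophoblast and germ cells, had 245 and 749 H3K4me3 reads and 941 and 398 of H3K27me3, with 91 and 152 of input. MYCN, the MYC family oncogene, had 51 and 139 H3K4me3 reads and 320 and 134 of H3K27me3. The others were VGLL2, a cofactor of TEAD, the zinc finger genes FEZF1, FEZF2, OSR1 and SALL1, and ESX1, an X-linked homeobox gene that the name patterns did not hold. Their H3K4me3 log2 ratios lay between 1.05 for SALL1 and 1.39 for VGLL2.

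Among the secreted factors were antagonists and ligands of developmental signaling. FST, which binds activin, had 200 H3K4me3 reads in DMSO and 414 in MAK683, with 478 and 227 of H3K27me3 and 89 and 118 of input. INHBB, which encodes an activin and inhibin subunit, had 101 and 207 H3K4me3 reads, with 363 and 126 of H3K27me3 and 69 and 74 of input. SOST, the WNT and BMP antagonist sclerostin, had 203 and 475 H3K4me3 reads but only 62 and 30 of H3K27me3, against 68 and 88 of input. The activin genes FST and INHBB thus carried H3K27me3 above input in both treatments, and SOST in neither. These were the 3 chosen of 47 genes of TGF-beta and BMP signaling. SFRP2 was the 1 chosen of 53 WNT ligands and antagonists.

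IGFBP1 and IGFBP3, which bind insulin-like growth factors, lie 18.6 kb apart on chromosome 7. IGFBP1 had 66 and 174 H3K4me3 reads, with 376 and 217 of H3K27me3 and 65 and 72 of input. IGFBP3 had 166 and 335, with 632 and 393 of H3K27me3 and 117 and 144 of input. Both had lower H3K27me3 and higher H3K4me3 counts in MAK683. The exact interval of the MAK683 share of H3K27me3 was 32.7% to 40.6% for IGFBP1, below the library's 41.0%. For IGFBP3 it was 35.4% to 41.4%, so its lower H3K27me3 count cannot be told from the smaller library. They were the 2 chosen of 64 growth factor genes, and IGFBP3 and ANKRD1 were the 2 chosen of 22 targets of YAP and TEAD. CXCL3, a chemokine that attracts neutrophils, had 68 and 237 H3K4me3 reads and was the 1 chosen of 108 cytokines and chemokines. The neuropeptide genes CCK, ADCYAP1 and NTS had 113 and 261, 55 and 113, and 42 and 97 H3K4me3 reads, respectively. LUM, which encodes the matrix proteoglycan lumican, was the 1 chosen of 131 genes of the extracellular matrix.

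Of the G protein-coupled receptors, 5 of 192 (2.60%) were chosen. Besides GPR12 these included S1PR1, the receptor of sphingosine-1-phosphate, with 141 and 352 H3K4me3 reads and 301 and 155 of H3K27me3, GPR85, with 102 and 230 H3K4me3 reads and 446 and 261 of H3K27me3, and the relaxin-family peptide receptor RXFP3. The input held 53 and 54 reads for S1PR1 and 111 and 133 for GPR85. RXFP3 had 33 and 74 H3K4me3 reads and 221 and 160 of H3K27me3. GAS1, a hedgehog co-receptor, had 256 and 519 H3K4me3 reads, 319 and 185 of H3K27me3 and 24 and 53 of input. DLK1, a NOTCH-like inhibitor of differentiation, had 127 and 255 H3K4me3 reads, 530 and 282 of H3K27me3 and 119 and 150 of input. These were the 2 chosen of 26 genes of NOTCH and hedgehog signaling. KCNJ8, a potassium channel subunit, had 64 and 159 H3K4me3 reads, 360 and 211 of H3K27me3 and 105 and 129 of input and, with FXYD6, was chosen from 242 ion channel genes. NRN1, a neurite growth factor anchored at the cell surface, had 159 and 397 H3K4me3 reads and 912 and 514 of H3K27me3, and was the 1 chosen of 132 neuronal and synaptic genes. CD1D, which presents lipid antigens, had 67 and 162 H3K4me3 reads and 420 and 201 of H3K27me3. TMEM100 and ENPP5 had 204 and 198 H3K4me3 reads in MAK683.

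The other proteins included 2 of 25 genes of growth arrest and stress, GADD45G and PLK2. PLK2, a polo-like kinase induced by stress, had 187 H3K4me3 reads in DMSO and 497 in MAK683, with 391 and 156 of H3K27me3 and 77 and 84 of input. SPRY2, an inhibitor of receptor tyrosine kinase signaling, had 225 and 737 H3K4me3 reads, with 275 and 177 of H3K27me3 and 48 and 77 of input. CCNA1, the germ cell cyclin A, had 164 and 343 H3K4me3 reads, with 549 and 368 of H3K27me3. FABP7, a fatty acid binding protein of glial progenitors, had 35 and 94 H3K4me3 reads. PNMA2, NUDT10, RNF39, FAM84A, C6orf141 and C9orf47 had between 77 and 486 H3K4me3 reads in MAK683. No chosen gene was among 420 solute carriers, 120 integrins and adhesion receptors, 114 genes of the interferon response and MHC, 88 matrix proteases, 75 genes of axon guidance, 73 of muscle and cytoskeleton, 39 keratins and 35 receptor tyrosine kinases. The exact interval of each of these shares also reached above 0.499%, so lists of this size could hold none at the background share. Of 13323 genes in none of the lists, 37 (0.278%) were chosen.

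Of the 36 noncoding or clone-named genes, 26 carry clone names, out of 4885 such genes (0.532%), close to the 0.499% of all genes. After RP11-64B16.3, the clone-named genes with the largest ratios were AC012462.1, with 48 and 172 H3K4me3 reads, 97 and 53 of H3K27me3 and 19 and 8 of input, and AC116614.1, with 26 and 88, 74 and 61, and 11 and 15 in the same order. Antisense RNAs were chosen at 5 of 402 (1.24%), and MYCNOS, which overlaps MYCN, came in addition. The exact interval of the 1.24%, from 0.405% to 2.88%, held the 0.499% of all genes, so the share cannot be told from it. LINC00599, with 96 and 297 H3K4me3 reads, was the 1 chosen of 400 LINC genes, and 3 pseudogenes made up the rest. The partner genes were mostly higher as well but below the limit. GATA3-AS1 had a log2 ratio of 1.11 and GATA3 0.86, SOX21-AS1 had 1.33 and SOX21 0.94, FZD10-AS1 had 1.53 and FZD10 0.91, and MEIS1-AS3 had 1.30 and MEIS1 0.61. The largest ratios among the antisense RNAs came with 25 and 87 H3K4me3 reads, 91 and 50 of H3K27me3 and 15 and 16 of input for PDZRN3-AS1. FZD10-AS1 had 194 and 561, 842 and 494, and 107 and 171 in the same order, and SOX21-AS1 had 140 and 354, 271 and 112, and 40 and 59. PDZRN3-AS1 had a log2 ratio of 1.76 while PDZRN3, a gene of 242.5 kb against 5.08 kb, had 0.063. MYCN was the only partner with the larger ratio, 1.43 against 1 for MYCNOS. Whether the counting used strand is not given in the sources used here, so reads of a gene and its antisense partner cannot be told apart where they overlap, and GATA3-AS1 and PDZRN3-AS1 have no unshared span in the annotation.

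The H3K27me3 libraries were not used to choose the genes. Levels over input were taken as log2 of CPM, the reads of a gene scaled to a common library total, over the input CPM of the same treatment, with 0.05 CPM added to each. In the DMSO library, 99 of the 110 genes (90.0%) had H3K27me3 above input, where 26.1% of the 21941 genes with at least 10 input reads did. It was at least 2 times input at 94 genes, against 10.6% of all genes, and at least 4 times input at 69 (62.7%), against 1.53%. The median log2 level over input was 2.24, with quartiles of 1.77 and 2.75 and a range of -1.14 to 4.41, and the median of all genes was -0.77. Genes that gained H3K4me3 counts were therefore mostly genes with high H3K27me3 in DMSO.

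RP1-151F17.1 and GATA3-AS1 had the highest H3K27me3 over input in DMSO, with log2 levels of 4.41 and 4.21, but rested on 6 and 9 input reads. RP1-151F17.1 had 165 and 80 H3K27me3 reads, 80 and 164 of H3K4me3 and 6 and 20 of input. GATA3-AS1 had 206 and 48, 156 and 338, and 9 and 16 in the same order. These low input counts make both levels imprecise. LOR, the cornified envelope protein loricrin, had a log2 level of 3.56, with 279 H3K27me3 reads in DMSO and 127 in MAK683, 159 and 327 of H3K4me3 and 20 and 29 of input. GAS1 followed with 3.50. CPEB2, an RNA-binding regulator of translation, had 3.49, with 303 and 149 H3K27me3 reads, 174 and 493 of H3K4me3 and 23 and 33 of input. Only 3.64% of its 67.7 kb span is not shared with other annotated genes, so its level may not stand for the whole gene. FEZF2, a zinc finger gene of forebrain neurons, had 3.44, with 516 and 383 H3K27me3 reads, 59 and 147 of H3K4me3 and 41 and 100 of input. All 6 had input counts below the DMSO median of 59 for the 110 genes.

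By role, H3K27me3 over input in DMSO was above input at 28 of 28 regulators of transcription, with a median log2 level of 2.60, and at least 4 times input at 24 of them. It was above input at 11 of 13 secreted factors (median 2.13), 13 of 17 surface proteins (median 1.99), 15 of 16 other proteins (median 2.13) and 32 of 36 noncoding or clone-named genes (median 2.12). The medians of the H3K4me3 log2 ratio were 1.22, 1.19, 1.26, 1.40 and 1.28 in the same order. The regulators of transcription were thus the role with the highest median of H3K27me3, and not of the H3K4me3 ratio, and whether the roles differ was not tested.

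**Figure D3:**
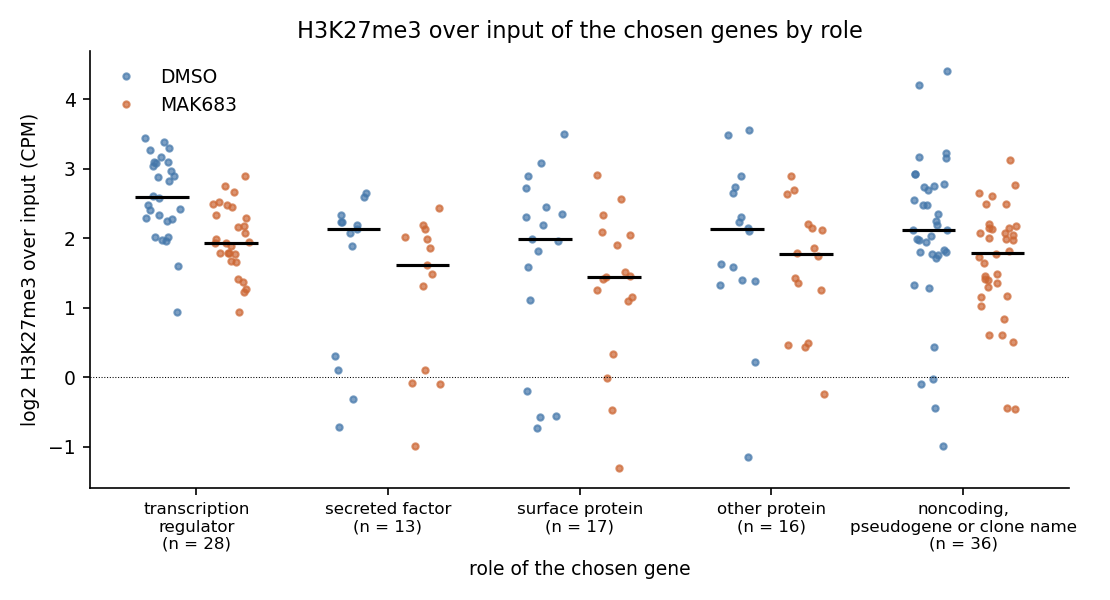
Log2 H3K27me3 over input (y axis) of the 110 chosen genes by role, in DMSO (blue) and MAK683 (orange). Each point is 1 gene and black lines are medians. All 28 regulators of transcription lie above 0 in DMSO, while each other role holds between 1 and 4 genes at or below 0, and the median of each role is lower in MAK683.

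After MAK683 the H3K27me3 count was lower at 106 of the 110 genes (96.4%), but the library as a whole was smaller, and a lower count was found for 88.7% of the 21501 genes with 10 reads or more. At least 2-fold lower counts were found at 32 of the 110 genes (29.1%), against 3.86% of all genes. Counts summed over the 110 genes were 39785 in DMSO and 22007 in MAK683, or 0.208% and 0.165% of the library. The median gene had 273.5 reads in DMSO and 155.5 in MAK683. The median log2 ratio was -0.79 in counts against -0.42 for all genes, and -0.27 in CPM against 0.10 for all genes. In CPM, 88 of the 110 genes (80.0%) were lower in MAK683, against 38.2% of all genes. H3K27me3 therefore took up a smaller part of its library at most of these genes after MAK683, while over all genes the median part was slightly larger. The smaller part was not particular to the chosen genes. In the group of genes highest in H3K27me3 over input, described below, the 2101 genes not chosen had a median log2 ratio of -0.23 in CPM. The 94 chosen genes of that group had -0.31.

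Single genes were compared with the library's share of 41.0% by the exact interval of their own share. The interval lay below 41.0% at 55 of the 110 genes (50.0%), against 15.4% of all genes, and above it at 4 (3.64%), against 28.2%. GATA3-AS1, with 206 and 48 reads, had the lowest log2 ratio of H3K27me3 counts, -2.08. INHBB followed with -1.52 and MEIS1-AS3 with -1.51. The 4 genes above the library's share were PCDHB15, AKR7L, CTC-523E23.11 and AC016910.1, with 22 and 37, 49 and 68, 91 and 109, and 99 and 101 reads. No other chosen gene had an H3K27me3 count that was not lower in MAK683, and the first 3 were at or below input in DMSO.

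In MAK683, too, most of the chosen genes had H3K27me3 above input. This held at 101 (91.8%), against 27.4% of all genes. H3K27me3 was at least 2 times input at 91, and no share over all genes stands beside this count. The median log2 level over input was 1.80 in MAK683 against 2.24 in DMSO, while all genes had medians of -0.58 and -0.77. The level was lower in MAK683 at 83 genes (75.5%), against 40.3% of all genes, with a median change of -0.44 on the log2 scale against 0.098. These levels are relative to each library's own total, so a loss of the mark that was equal over the whole genome would not appear in them. The input of the chosen genes was itself slightly higher in MAK683, with a median log2 ratio in CPM of 0.15 against 0.0040 for all genes, and its part in the lower levels was not tested.

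**Figure D4:**
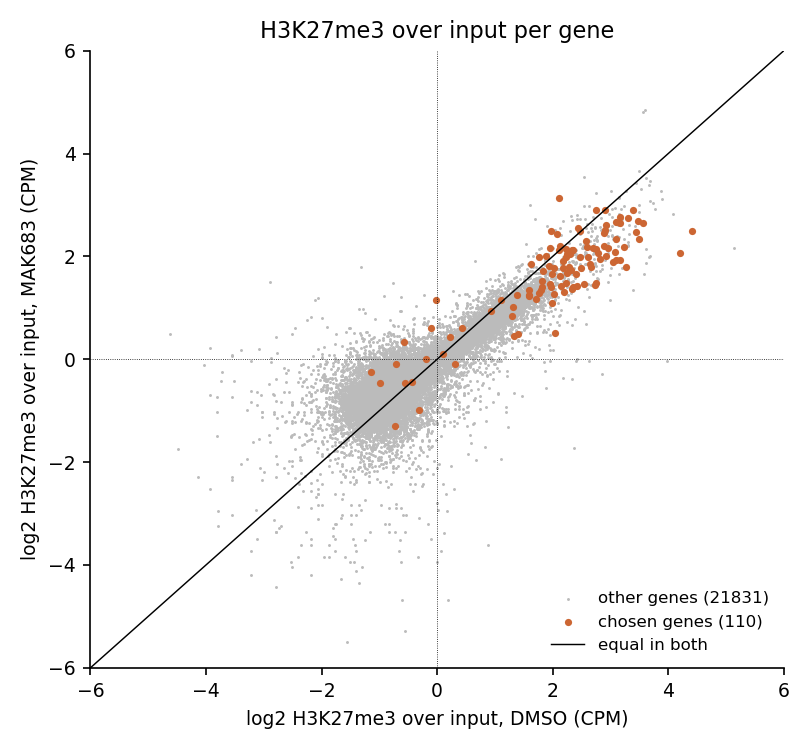
Log2 H3K27me3 over input in DMSO (x axis) and MAK683 (y axis) for the 21941 genes with at least 10 input reads, 1 library per axis and mark. The 110 chosen genes (orange) lie mostly at the upper right, with medians of 2.24 and 1.80, and 83 of them lie below the line of equal levels.

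H3K4me3 over input, which entered the choice, is given as a description. The median log2 level of the 110 genes was 0.076 in DMSO, close to the -0.0040 of all genes, and 1.35 in MAK683, where all genes had 0.062. In DMSO 56 of the chosen genes had H3K4me3 above input (49.9% of all genes), and in MAK683 103 had (51.9% of all genes), and 47 crossed from below to above input. At 77 genes the level over input was also at least 2-fold higher, against 0.975% of all genes, and at the other 33 it was not. The change of the log2 level ranged from -0.26 to 3.36. RP1-151F17.1 had a lower level in MAK683, 2.97 against 3.23, on 6 input reads in DMSO and 20 in MAK683. OSR1, with 41 and 114 input reads, had nearly the same level in both, 1.98 in DMSO and 2.07 in MAK683. Both marks were above input at 54 genes (49.1%) in DMSO, against 4.52% of all genes, and at 97 in MAK683. No share over all genes stands beside this 97 or the 47 above. H3K4me3 in MAK683 entered the choice, so the rise to 97 is in part a result of the choice. In a whole-gene count the 2 marks need not lie on the same nucleosomes or in the same cells.

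The 11 chosen genes with H3K27me3 at or below input in DMSO were AKR7L, RP5-859D4.3, CALHM3, KLK15, PCDHB15, ALPPL2, SOST, ART1, RP11-309M23.1, CTC-523E23.11 and 1 more gene with a clone name. AKR7L, an aldo-keto reductase gene, had the lowest level, -1.14 on the log2 scale, with 49 and 68 H3K27me3 reads, 96 and 118 of input and 56 and 116 of H3K4me3. CALHM3, a calcium channel subunit of taste cells, had 54 and 32 H3K27me3 reads, 79 and 117 of input and 40 and 82 of H3K4me3. KLK15, a serine protease, had 58 and 48, 84 and 75, and 41 and 83 in the same order. H3K27me3 was below input in both treatments for these 3 genes. RP5-859D4.3 had 38 and 32 H3K27me3 reads, 67 and 65 of input and 35 and 84 of H3K4me3. PCDHB15, a protocadherin of the beta cluster, had 22 and 37, 29 and 43, and 31 and 75 in the same order. Most of the 11 thus had few H3K4me3 reads. The exceptions were ALPPL2 with 327 in MAK683, SOST with 475 and ART1, a surface ADP-ribosyltransferase, with 378. PCDHB15, ALPPL2, KLK15 and AKR7L have close relatives in the genome, as do CXCL3 and NUDT10, so their counts are uncertain.

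The chosen genes were concentrated among genes with the highest H3K27me3. When the 21941 genes were divided into 10 groups of equal size by H3K27me3 over input in DMSO, 94 of the 110 fell in the highest group, where they made up 4.28% of 2195 genes. No other group held more than 7. By H3K4me3 over input in DMSO they were spread over all groups, with between 4 and 19 in each. By input reads, 47 fell in the lowest group (2.14%), 35 in the next and none in the upper 4 groups.

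**Figure D5:**
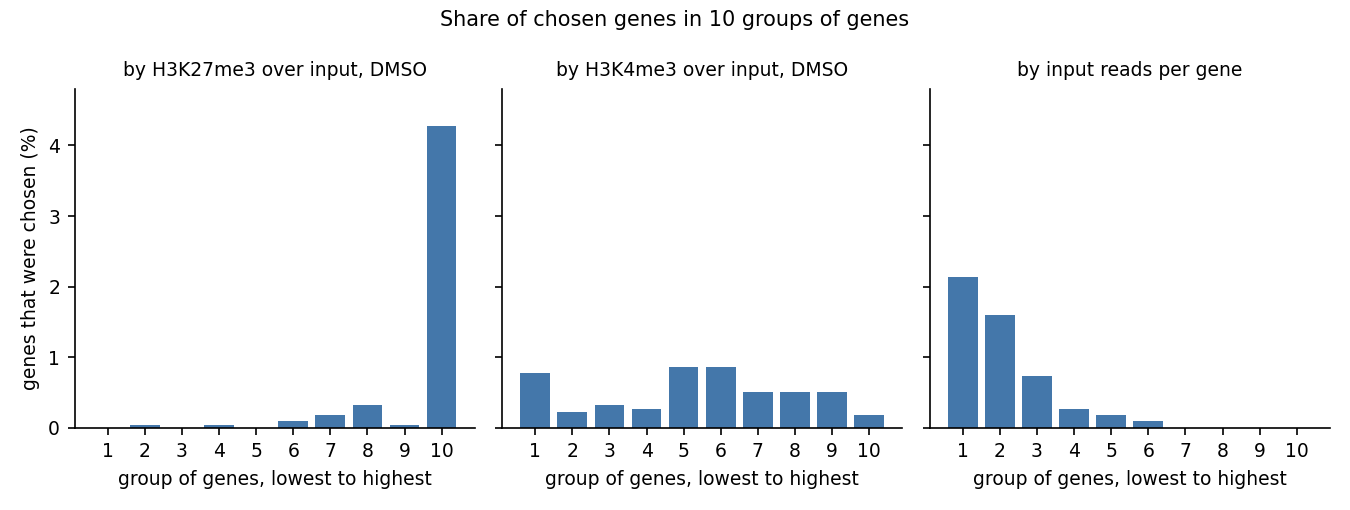
Percent of genes that were chosen (y axis) in 10 groups of equal size (x axis, lowest to highest), grouped by H3K27me3 over input in DMSO (left), by H3K4me3 over input in DMSO (middle) and by input reads (right). The share reaches 4.28% in the group highest in H3K27me3 and 2.14% in the group lowest in input reads.

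When genes were instead split into 3 groups by input and 3 by H3K27me3, the lowest input group held 2, 5 and 92 chosen genes from low to high H3K27me3, or 0.08%, 0.21% and 3.78% of its genes. In the middle input group 11 were chosen, all of them in the highest H3K27me3 group, and in the highest input group none. Among genes of similar input, the chosen genes were thus those with high H3K27me3. They were also short. The median length of the 81 chosen genes matched to the annotation was 6.85 kb against 34.2 kb for all matched genes, and 59 of the 81 spanned under 10 kb. The median number of input reads, both inputs together, was 134 against 657.5. The part of gene length in the choice was not tested.

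Most genes with high H3K27me3 were not chosen. In the group highest in H3K27me3 there were 2101 genes that were not chosen, whose median H3K4me3 log2 ratio was 0.095. Their median H3K27me3 over input was 1.36 against 2.33 for the 94 chosen genes of that group, and their median input count 550 against 125.5. The H3K27me3 log2 ratio between treatments had close medians, -0.76 in the other genes and -0.84 in the chosen genes. Within the 110 genes, the size of the H3K4me3 ratio had a Spearman rho of 0.11 with H3K27me3 over input in DMSO. With the H3K27me3 ratio it was -0.10, both across genes that share their libraries. Only genes above the limit of the ratio entered, so these values do not describe the relation over all genes. Over the 10 groups by H3K27me3 over input in DMSO, the median H3K4me3 log2 ratio rose from -0.32 in the lowest to 0.11 in the highest.

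Promoter sequence was examined for the 70 chosen genes annotated as protein coding, in 2000 bases of GRCh37 around the start of the canonical transcript. The ratio of observed to expected CpG had a median of 0.72, against 0.67 over 15345 protein-coding genes that passed the same minimum of 50 reads, and reached 0.6 in 50 of the 70 (71.4%) against 64.2%. Over all these genes the chosen promoters were thus little richer in CpG than others. Among genes of the group highest in H3K27me3 the share was 81.4% of 59 chosen and 54.1% of 1248 other genes. In the 7 protein-coding genes at or below input for H3K27me3 the median ratio was 0.27, and 1 of the 7, AKR7L, reached 0.6.

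Values of the promoters shown above were 0.85 for GADD45G, 0.53 for FXYD6, 0.59 for NAP1L2 and 0.17 for ANKRD1. EN2 had the highest value of the 70, 1.06. In the 300 bases from 250 before to 50 after the start, on either strand, TATAAA was present in 10 of the 70 (14.3%) against 7.17% of all these promoters. Among genes of the group highest in H3K27me3 the shares were 13.6% of 59 chosen and 14.1% of 1248 other genes, so TATAAA did not set the chosen genes apart there. These were EVX2, HOXD13, NRN1, RNF39, IGFBP1, GPR85, TBX3, GSC, MAF and KLK15. GGAATG, the letters of the TEAD motif, was present in 8 (11.4%) against 10.6%, with ANKRD1 among them and IGFBP3 not. The 2 motifs do not overlap in sequence.

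At the limit of the choice, SFRP2 had 76 and 153 H3K4me3 reads, RP11-1299A16.3 126 and 253 and MYCNOS 84 and 169, all just inside. C1QL2, with 85 and 170 reads, RP11-456K23.1, with 63 and 126, and RFPL4AL1, with 45 and 90, were just outside. C1QL2, a secreted protein of synapses, had 361 and 251 H3K27me3 reads beside 32 and 37 of input. Genes on either side of the limit thus differed by less than the counting error.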

How the data were processed

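Chromatin of G401 cells was analysed in 6 libraries, H3K27me3, H3K4me3 and input in DMSO and MAK683. The authors aligned reads to hg19 with Bowtie2, removed repeat sequences with Picard and deposited raw counts of reads per gene from featureCounts, for 56638 genes. Tool names follow the methods and the submitters' processing notes (Trim Galore 0.4.4, Picard 2.23.6). The annotation, the feature counted (exons or whole genes) and the use of strand are not given in the sources used here. The deposited counts were not scaled by the Drosophila spike-in, whose factors were not analysed here. Library totals lay between 13308099 and 21281877 counts, so 3 counts, the smallest level taken as detectable, were between 0.141 and 0.225 CPM.

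The genes, the families and the roles were chosen with earlier results of these data known, and the roles after the genes had been seen. Ratios were log2((MAK683 + 1)/(DMSO + 1)) of counts, for H3K27me3 where either library had 10 counts or more, and levels over input were log2 ratios of CPM, each with 0.05 added, for genes with 10 input counts or more. Shares have 95% exact Clopper-Pearson intervals, which cover counting error only, and a gene set is described by counts and medians beside all genes that averaged at least 50 H3K4me3 counts. With 1 library per group no count model was fitted. Values in all libraries were given for the 12 largest ratios, the 6 highest and 6 lowest in H3K27me3 over input, the 6 highest H3K4me3 counts in MAK683 and the 3 largest ratios of each family with at least 2 chosen genes. Other chosen genes were named within their family. Of these, 1 is counted but not reported by name here. The calculation of the ratio was tested on simulated data.

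Gene symbols were matched to GENCODE release 44 on GRCh37, 33514 directly and 1793 by an older symbol. Promoter sequence came from the GRCh37 genome. The alternatives were CPM, median-of-ratios scaling, other pseudocounts and minimum counts, both inputs summed, autosomes and genes with at least 50% unshared span. Python 3.11.15, numpy 2.4.6, pandas 2.3.3, scipy 1.17.1 and matplotlib 3.10.9 were used.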

Additional observations from a re-analysis of the deposited data

How the results depend on the processing

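No paired analysis was possible because there was 1 library per treatment and antibody, and for the same reason no replicate could be left out. Of 41 values recomputed under alternatives, 25 stayed within their interval or, for counts of genes, within 1.5 times, 12 moved further and 4 changed sign. The 110 genes became 258 with a minimum mean of 20 counts, 73 with 100 and 1056 with no minimum beyond 10 counts in 1 library, and 43 had an exact interval above a 2-fold ratio. In CPM 161 genes were at least 2-fold higher and 16 lower (91.0% higher), with median-of-ratios scaling 148 and 18 (89.2%), and in counts 110 and 34 (76.4%). All 110 were among the 161 and among the 148. Scaling to CPM moved the median of all genes from -0.42 to 0.10 for H3K27me3 and from -0.13 to -0.016 for H3K4me3.

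The median log2 H3K27me3 over input of 2.24 in DMSO was 1.83 with a pseudocount of 1 CPM and 2.02 with at least 100 input counts, and that of 1.80 in MAK683 was 1.54 and 1.49. The median H3K4me3 over input in DMSO, 0.076, turned to -0.12 with both inputs summed, -0.27 with at least 100 input counts, -0.072 with at least 50% unshared span and -0.070 for the genes chosen in CPM, so its sign is not established. The median H3K27me3 log2 ratio of -0.79 was -0.27 in CPM and -0.37 with median-of-ratios scaling. The share of chosen genes in the group highest in H3K27me3, 4.28%, was 5.79% for genes chosen in CPM and 2.91% with at least 100 input counts. Except for the changes of scale, the cause was not tested. H3K27me3 was above input in DMSO at 87.6% to 91.8% of the chosen genes under all alternatives run. Depth limits the genes near the minimum of 50 counts, and the lack of replicates limits all values.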

Other observations

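The 34 genes with at least 2-fold lower H3K4me3 counts after MAK683 were mostly noncoding genes, pseudogenes or genes with clone names. Of them, 19 carry clone names, as do 4885 of the 22042 genes that averaged at least 50 reads. Of the 15 matched to the annotation 3 are protein coding, BMI1, ZNF764 and FABP1. Of the 32 with at least 10 input reads, 3 (9.38%) had H3K27me3 above input in DMSO, against 26.1% of all genes. The median log2 level of the 32 was -0.97, against -0.77 for all genes. The median input count of the 34 genes was 39.5, both inputs together. The 5 largest decreases were RP4-761J14.9 with 87 H3K4me3 reads in DMSO and 26 in MAK683, RP11-469J4.3 with 98 and 38, AC090505.1 with 72 and 28, RP4-686C3.7 with 145 and 58 and AP000431.1 with 200 and 82.

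Of the lower genes, 3 were pseudogenes of the histone clusters, HIST1H3PS1 with 216 and 100 reads, HIST1H1PS1 with 118 and 55 and HIST1H2APS4 with 239 and 119. Over all 55 clustered histone genes the median H3K4me3 log2 ratio was -0.41, against -0.13 for all genes. Other groups of genes also had low medians. It was -0.32 in the group of genes lowest in input reads and -0.37 in the group highest in H3K4me3 over input in DMSO. Whether the histone genes differ from such genes was not tested. BMI1, a subunit of PRC1, the other Polycomb complex, had 72 and 35 reads, with 18 and 28 of input. Only 18.7% of its span is not shared with other annotated genes. In CPM its log2 ratio was -0.91, short of a 2-fold decrease. These genes were named after their values were seen.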
